A study of Mus musculus with 12 samples.

Results

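The expression of 10 macrophage markers was followed through the growth and regression of a YAP1-driven mouse rhabdomyosarcoma: Adgre1, Csf1r, Cd68, Aif1, Lyz2, Ctss, Itgam, Msr1, Mrc1 and Cd163. The markers were chosen by name, as known genes of tissue and tumour macrophages, but with earlier results of these data known. All 10 were measured among 19937 genes. Each gene was read by the brightest probe set that carried its symbol alone, and no marker had more than 1 such probe set. Levels are log2 of the array intensity, so a difference of 1 is a 2-fold change.

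Macrophages are tissue phagocytes that descend from embryonic precursors or from blood monocytes. Their survival depends on the receptor Csf1r and its ligands Csf1 and Il34, and their identity on the transcription factor PU.1, encoded by Spi1. Macrophages settled in skeletal muscle typically carry the scavenger receptor Cd163 and the mannose receptor Mrc1, while those recruited to tumours vary in both and can take up and clear dying cells.

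The tumours were allografts. Donors carried Myf5Cre, R26-LSL-rtTA and Col1a-Teto-hYAP1 S127A on a C57BL/6 background, so that doxycycline switched on a mutant human YAP1 in cells with a Myf5 history. Interstitial cells from the hindlimb muscle of donors given doxycycline for 4 weeks were placed in the gastrocnemius of NOD/SCID hosts kept on doxycycline. TUM are 3 tumour samples at day 0 of doxycycline removal. OFF3 and OFF6 are 3 tumour samples each, at 3 and 6 days after removal. CTL are 3 samples of hindlimb muscle from uninduced mice of the donor genotype. No ages were given. NOD/SCID hosts lack mature T and B cells but keep macrophages, so the tumours hold cells of donor and host. Strain, host, doxycycline exposure and tumour cannot be told apart in any comparison with CTL. Between TUM and OFF3 or OFF6, doxycycline itself and the YAP1 it switched on cannot be told apart either. RNA was taken from whole tissue. Fewer macrophages and less of an RNA per macrophage therefore cannot be told apart. The labels do not say whether samples of a group were separate animals, so the p-values cover the spread among these arrays alone, which may be technical.

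Median intensity per array was 86.74 to 93.05, and arrays of a group correlated at 0.991 to 0.999 over all genes. Of the 10 markers, 9 had a mean level above the median gene, and Cd163 did not. Skeletal muscle genes, the check of the CTL tissue, were lower in TUM than in CTL for 8 of 10 and higher for 1.

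Promoters of 7 of the markers were searched for the PU.1 core, since PU.1 acts at the promoters of many macrophage genes; Adgre1, Csf1r and Msr1 were not searched. The sequences are RefSeq's on GRCm38.p6 and run from 250 bases before to 50 after each gene's start. The 3 below are shown because they held the motif most often or, for Cd68, also held an AP-1 motif. Mrc1 lies at chr2:14229164-14229463 on the plus strand, Itgam at chr7:128062390-128062689 on the plus strand and Cd68 at chr11:69666121-69666420 on the minus strand. Capitals mark GAGGAA or, for the other strand, TTCCTC.
Mrc1: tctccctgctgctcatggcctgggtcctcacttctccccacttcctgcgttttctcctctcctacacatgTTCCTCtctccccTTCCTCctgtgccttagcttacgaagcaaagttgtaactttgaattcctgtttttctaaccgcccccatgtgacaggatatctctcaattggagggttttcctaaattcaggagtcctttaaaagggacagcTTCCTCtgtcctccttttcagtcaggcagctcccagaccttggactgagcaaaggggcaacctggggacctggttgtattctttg
Itgam: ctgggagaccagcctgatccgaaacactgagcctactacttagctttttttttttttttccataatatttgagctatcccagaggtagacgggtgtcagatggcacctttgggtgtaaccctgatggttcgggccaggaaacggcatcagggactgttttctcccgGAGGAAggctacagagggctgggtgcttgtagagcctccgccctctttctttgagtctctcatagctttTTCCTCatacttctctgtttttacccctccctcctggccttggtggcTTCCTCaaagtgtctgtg
Cd68: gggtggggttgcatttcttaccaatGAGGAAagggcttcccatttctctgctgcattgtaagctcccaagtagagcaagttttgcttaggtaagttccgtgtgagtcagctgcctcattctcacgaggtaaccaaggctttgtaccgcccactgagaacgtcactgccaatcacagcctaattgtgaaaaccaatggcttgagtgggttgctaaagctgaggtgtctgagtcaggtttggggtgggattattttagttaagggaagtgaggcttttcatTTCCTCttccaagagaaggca
The motif stood in 5 of the 7 promoters: Mrc1 and Itgam held 3 each, Cd68 and Ctss 2 each and Aif1 1. Of 32851 mouse promoters of the same length, 28.3% held it. The AP-1 motif TGANTCA stood in Cd68, with 2 matches, and in no other of the 7, against 7.81% of all promoters. GGAATG or CATTCC, the core bound by the TEAD partners of YAP1, stood in none of the 7, against 14.7% of all promoters. A match is a run of letters, and whether a factor bound there was not measured.

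OFF6 replicate 2 stood apart from the other OFF6 arrays. It lay above both of them for 10 of 10 markers, against 40.6% of all genes, and it was nearer the OFF3 mean than the mean of OFF6 replicates 1 and 3 for each of the 10. Its gap to those replicates was 0.25 for Cd68 at the least and 1.42 for Mrc1 at the most, with a median of 0.65 over the markers and -0.01 over all genes. The within-group SD of a marker was 0.037 to 0.20 in OFF3 and 0.15 to 0.82 in OFF6, against 0.009 to 0.055 in TUM and 0.052 to 0.31 in CTL. The array also stood apart over all genes: on the third principal component it scored -6.45, against 26.3 and 26.0 for the other OFF6 arrays and -16.9 to -13.6 for OFF3. The OFF6 mean therefore averages unlike arrays. The labels give this sample the same time point as the other OFF6 samples, and whether its sampling or label differed was not tested. Marker results that involve OFF6 and the counts of the immune gene lists are therefore given with this array and without it.

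Macrophage markers were far more abundant in the tumours than in muscle. In TUM against CTL, 9 of the 10 rose, by 3.52-fold for Mrc1 to 15.4-fold for Msr1, and Cd163 fell. The largest adjusted p among the 9 was 7.66e-05 in limma, with p-values adjusted over all genes here and throughout. Of all genes, 30.3% were called higher and 45.9% lower in this comparison. The median difference of the 10 markers was 2.85, against -0.15 for all genes. The same split of 9 higher and 1 lower held in OFF3 against CTL, where 28.4% of all genes were higher and 41.4% lower. It also held in OFF6 against CTL, with 28.1% of all genes higher and 36.1% lower. These comparisons share the CTL arrays. Every TUM, OFF3 and OFF6 array lay above every CTL array for the 9 markers and below every CTL array for Cd163. The share of all genes that separated in this way was not counted, so the separation is a description alone.

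Among the general markers, Adgre1 rose at 3 days, Cd68 fell at 6 days and Aif1 rose at 3 days, each against TUM. Adgre1, an adhesion-type receptor and the classic surface antigen of mouse macrophages, stood at 11.14, 11.18 and 11.14 in TUM, 11.77, 11.61 and 11.65 in OFF3, 11.20, 11.78 and 11.13 in OFF6, and 7.31, 7.61 and 7.87 in CTL. All OFF3 arrays lay above all TUM arrays, and at 6 days OFF6 replicate 2 alone was as high as OFF3. Adgre1 was 3.56 ± 0.16 higher in TUM than in CTL (limma SE, adjusted p = 5.06e-10), an 11.8-fold difference. Here and for the other tested differences, the SE uses 1 estimate of spread per gene, shared by all 12 arrays, 3 per group. The wide OFF6 spread therefore also enters the SE of comparisons without OFF6. Adgre1 rose by a further 0.52 ± 0.16 in OFF3 over TUM (adjusted p = 0.0263). OFF6 minus TUM was 0.22 ± 0.16 (adjusted p = 0.344), with overlapping arrays. The call in OFF3 was lost on leaving out any TUM array, OFF3 replicate 1 or OFF3 replicate 3 (adjusted p = 0.0591 to 0.0762), at differences of 0.48 to 0.53.

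Csf1r, the receptor for the macrophage growth factors, was 11.22, 11.23 and 11.23 in TUM, 11.66, 11.64 and 11.47 in OFF3, 10.70, 11.41 and 10.67 in OFF6, and 8.64, 8.68 and 8.75 in CTL. The receptor was above TUM on each OFF3 array and below it on OFF6 replicates 1 and 3. It was 5.80-fold higher in TUM than in CTL (2.54 ± 0.15, adjusted p = 7.52e-09). OFF3 minus TUM was 0.36 ± 0.15 and missed the threshold (adjusted p = 0.0992), as did OFF6 minus TUM at -0.30 ± 0.15 (adjusted p = 0.165). OFF6 was lower than OFF3 by the test (-0.66 ± 0.15, adjusted p = 0.019), with no overlap. Without OFF6 replicate 2 all 3 of these differences passed, at 0.36, -0.54 and -0.90. The call between the time points was lost without OFF3 replicate 1 or 2 or OFF6 replicate 1 or 3 (adjusted p = 0.0664 to 0.102).

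Cd68, a glycoprotein of the late endosome and lysosome, read 11.47, 11.48 and 11.49 in TUM, 11.53, 11.40 and 11.40 in OFF3, 11.02, 11.29 and 11.05 in OFF6, and 7.90, 8.13 and 8.30 in CTL. The marker was nearly level for 3 days and lower on all OFF6 arrays. It was 10.4-fold higher in TUM than in CTL (3.38 ± 0.10, adjusted p = 1.43e-11). OFF3 minus TUM was -0.04 ± 0.10 (adjusted p = 0.83), and Cd68 fell by 0.37 ± 0.10 in OFF6 against TUM (adjusted p = 0.0126), a call lost without OFF6 replicate 1 (adjusted p = 0.0549).

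Aif1, the calcium-binding protein Iba1 that bundles actin in macrophages, was 7.71, 7.75 and 7.77 in TUM, 8.60, 8.47 and 8.46 in OFF3, 7.90, 8.60 and 7.95 in OFF6, and 5.49, 5.12 and 5.48 in CTL. Both sets of regressing tumours lay wholly above TUM, though OFF6 replicates 1 and 3 lay close to it. Aif1 was 5.21-fold higher in TUM than in CTL (2.38 ± 0.16, adjusted p = 2.12e-08). Among the 10 markers it had the largest rise in OFF3 over TUM, 0.77 ± 0.16 (adjusted p = 0.0026). OFF6 minus TUM was 0.41 ± 0.16 (adjusted p = 0.0691), and 0.18 without OFF6 replicate 2 (adjusted p = 0.197). It passed without OFF6 replicate 1 or 3 (adjusted p = 0.0304 and 0.0473).

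The 2 enzymes of the list behaved alike at 3 days. Lyz2, the lysozyme of macrophages and granulocytes, was 12.52, 12.44 and 12.48 in TUM, 12.86, 12.83 and 12.90 in OFF3, 12.37, 12.81 and 12.46 in OFF6, and 10.56, 10.56 and 10.69 in CTL. Ctss, the cysteine protease cathepsin S that trims the invariant chain during antigen presentation, was 11.21, 11.15 and 11.11 in TUM, 11.64, 11.60 and 11.55 in OFF3, 11.35, 11.68 and 11.27 in OFF6, and 7.14, 7.32 and 7.32 in CTL. Every OFF3 array was above every TUM array for both genes, and at 6 days this remained so for Ctss alone of the pair. Lyz2 was 3.68-fold and Ctss 14.9-fold higher in TUM than in CTL (adjusted p = 1.62e-09 and 4.01e-12). In OFF3 over TUM, Lyz2 rose by 0.38 ± 0.10 (adjusted p = 0.00898) and Ctss by 0.44 ± 0.10 (adjusted p = 0.00363). At 6 days the difference from TUM was 0.07 ± 0.10 for Lyz2 (adjusted p = 0.622), while Ctss was 0.28 ± 0.10 higher (adjusted p = 0.0422). That Ctss call was lost without OFF6 replicate 2 (0.15, adjusted p = 0.119) and without any TUM array (adjusted p = 0.0711 to 0.131).

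Itgam and Msr1 went the other way at 3 days. Msr1, the class A scavenger receptor that takes up modified lipoproteins, was 10.80, 10.77 and 10.88 in TUM, 9.83, 9.78 and 9.46 in OFF3, 9.33, 9.62 and 9.40 in OFF6, and 6.85, 6.93 and 6.83 in CTL. All OFF3 and OFF6 arrays lay below all TUM arrays and above all CTL arrays, and the OFF3 and OFF6 arrays overlapped. Msr1 was 15.4-fold higher in TUM than in CTL (3.94 ± 0.10, adjusted p = 5.32e-12). It fell by 1.12 ± 0.10 in OFF3 (2.18-fold, adjusted p = 4.02e-06) and by 1.37 ± 0.10 in OFF6 (2.58-fold, adjusted p = 6.55e-07), each against TUM. These were the largest changes of any marker after doxycycline removal, and without OFF6 replicate 2 the OFF6 difference was -1.45.

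Itgam, the integrin CD11b that myeloid cells use for adhesion and for uptake of complement-coated particles, was 9.79, 9.76 and 9.77 in TUM, 9.19, 9.003 and 9.14 in OFF3, 8.57, 9.53 and 8.67 in OFF6, and 6.92, 6.31 and 6.62 in CTL. Each OFF3 and OFF6 array lay below each TUM array. Itgam was 8.92-fold higher in TUM than in CTL (3.16 ± 0.21, adjusted p = 2.13e-08). It fell by 0.66 ± 0.21 in OFF3 (adjusted p = 0.0315) and by 0.85 ± 0.21 in OFF6 (adjusted p = 0.00764), each against TUM. Without OFF6 replicate 2 the OFF6 difference was -1.15. The OFF3 call was lost on leaving out any array of the pair of groups, with adjusted p of 0.0523 to 0.10, and with a replicate block (adjusted p = 0.0547). A further 2 probe sets name both Itgam and Rpl35 and were not used.

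Mrc1 and Cd163 are the markers of the resident or alternative type. Mrc1, the mannose receptor CD206, was 10.42, 10.37 and 10.40 in TUM, 10.86, 10.85 and 10.63 in OFF3, 9.33, 10.73 and 9.29 in OFF6, and 8.51, 8.60 and 8.64 in CTL. It had the widest spread of any marker in OFF6, where replicates 1 and 3 lay below all TUM arrays and replicate 2 above them. Mrc1 was 3.52-fold higher in TUM than in CTL (1.81 ± 0.28, adjusted p = 7.66e-05). Neither OFF3 minus TUM (0.38 ± 0.28, adjusted p = 0.374) nor OFF6 minus TUM (-0.61 ± 0.28, adjusted p = 0.122) passed, and OFF6 was lower than OFF3 (-0.997 ± 0.28, adjusted p = 0.0417). Without OFF6 replicate 2 the spread was much smaller, and the 3 differences were 0.38 ± 0.069, -1.09 ± 0.077 and -1.47 ± 0.077, all called. Leaving out any other array of OFF3 or OFF6 ended the call between the time points (adjusted p = 0.0587 to 0.193).

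Cd163, the receptor for haemoglobin bound to haptoglobin, was the single marker lower in tumours than in muscle. It was 6.08, 6.01 and 6.02 in TUM, 6.56, 6.51 and 6.23 in OFF3, 5.54, 6.34 and 5.45 in OFF6, and 6.67, 7.05 and 7.01 in CTL. All 9 tumour arrays lay below all 3 muscle arrays. The marker was low, with a mean of 6.29 over the 12 arrays, against array medians of 6.97 to 7.20 over all genes. Its differences therefore rest on low values. Cd163 was 1.83-fold lower in TUM (-0.87 ± 0.19, adjusted p = 0.00136), 1.39-fold lower in OFF3 (-0.48 ± 0.19, adjusted p = 0.042) and 2.20-fold lower in OFF6 (-1.14 ± 0.19, adjusted p = 0.000216), each against CTL. OFF3 minus TUM was 0.39 ± 0.19 (adjusted p = 0.163), and OFF6 was lower than OFF3 (-0.66 ± 0.19, adjusted p = 0.0493). Without OFF6 replicate 2 the difference was -0.94 (adjusted p = 0.000115), and without OFF3 replicate 1 or 2 or OFF6 replicate 1 or 3 the call was lost (adjusted p = 0.138 to 0.222). The OFF3 difference from CTL also missed the threshold without any OFF3 array or CTL replicate 2 or 3 (adjusted p = 0.0518 to 0.135).

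**Figure D1:**
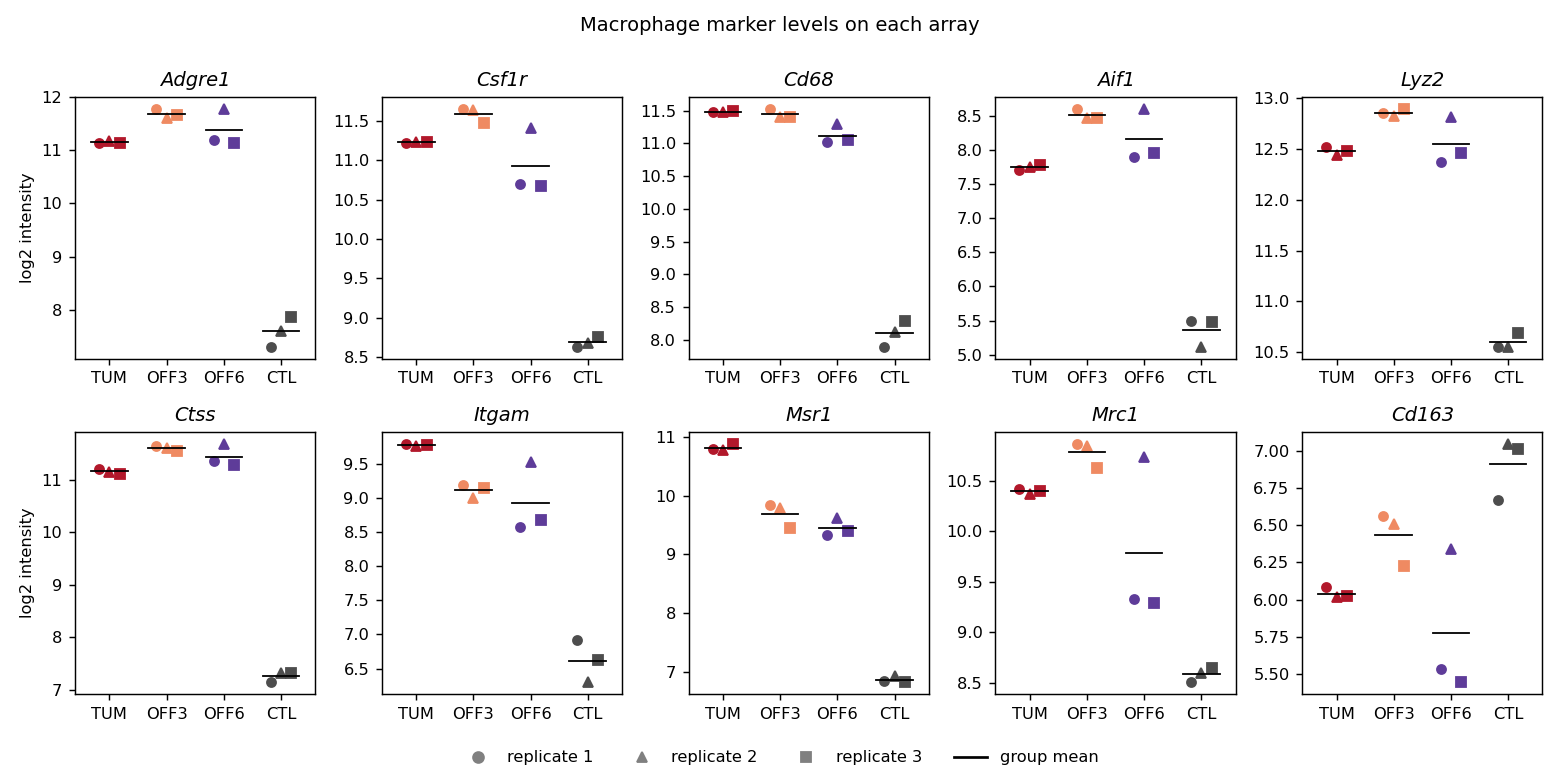
Log2 intensity of each of the 10 macrophage markers on each array, in TUM, OFF3, OFF6 and CTL, with points for arrays and lines for group means. The panels of 9 markers show tumours above muscle, Cd163 shows the opposite, and OFF6 replicate 2 is the highest OFF6 point in every panel.

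After doxycycline removal the 10 markers did not move as 1 block. In OFF3 against TUM, 4 rose (Aif1, Adgre1, Ctss and Lyz2), 2 fell (Msr1 and Itgam) and 4 did not pass. Of all genes, 13.4% were called higher and 16% lower. The markers' median difference was 0.38, against 0.02 for all genes. In OFF6 against TUM, Ctss rose, Msr1, Itgam and Cd68 fell, and 6 did not pass. Here 14.9% of all genes were higher and 16.6% lower, and the medians were -0.28 for the markers and 0.05 for all genes. These comparisons share the TUM arrays.

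Between the time points, no marker was higher and 3 were lower in OFF6 than in OFF3: Csf1r, Cd163 and Mrc1. Of all genes, 6.05% were higher and 4.38% lower. The median difference was -0.32 for the markers and 0.02 for all genes. All 10 differences were below 0, from -0.16 for Ctss to -0.997 for Mrc1. This test is also the test of whether the change from TUM differed between 6 and 3 days.

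Leaving out OFF6 replicate 2 altered these counts. In OFF3 against TUM, 7 markers were then higher and 2 lower, with 16.4% and 18.2% of all genes called. In OFF6 against TUM none was higher and 6 were lower (Mrc1, Msr1, Itgam, Cd163, Csf1r and Cd68), with 16.2% and 18.4% of all genes called. In OFF6 against OFF3 none was higher and all 10 were lower, by 0.29 for Ctss to 1.47 for Mrc1, with 12% and 12.4% of all genes called. The array had been set apart partly because it was the highest OFF6 array for each of the 10 markers. Leaving it out therefore lowers every OFF6 mean by selection, and these counts are no separate support for a fall. With each array left out in turn, the lower count in OFF6 against OFF3 ran from 0 to 10. The OFF3 means were the same in both fits, and the added calls in OFF3 against TUM came with smaller standard errors.

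**Figure D2:**
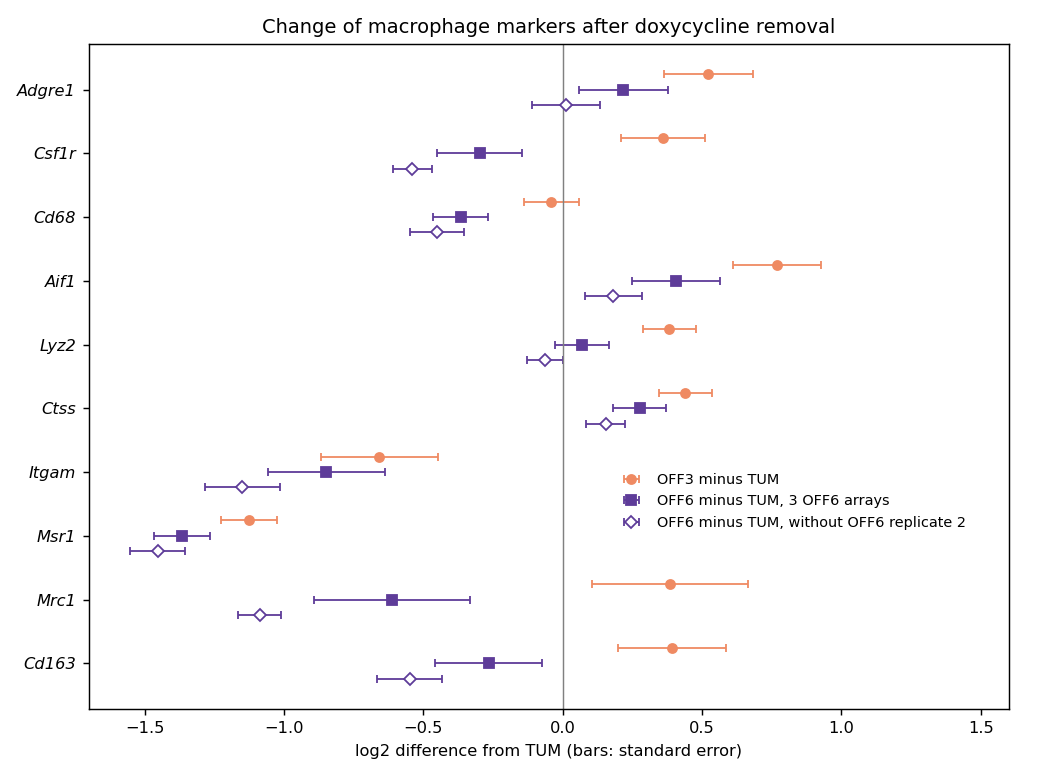
Log2 difference of each marker from TUM, with standard errors, for OFF3 (circles), OFF6 (filled squares) and OFF6 without replicate 2 (open diamonds). Msr1 and Itgam lie left of 0 at both times, and Mrc1 moves from -0.61 to -1.09 when replicate 2 is left out.

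The level of each marker against Csf1r on the same array, set to 0 at the TUM mean, shows unequal change within the list and does not depend on how arrays are scaled. These ratios were computed after the values had been seen and were not tested. The ratio of Msr1 to Csf1r was -1.48 ± 0.10 in OFF3, -1.07 ± 0.27 in OFF6 and -1.41 ± 0.09 in CTL (SD, n = 3 each). For Itgam it was -1.02 ± 0.15 in OFF3, -0.55 ± 0.12 in OFF6 and -0.62 ± 0.34 in CTL. Both were lower than in TUM on every other array.

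Mrc1 and Cd163 differed from Msr1 in this respect. The Cd163 ratio stayed near its TUM value in regressing tumours, at 0.03 ± 0.08 in OFF3 and 0.03 ± 0.08 in OFF6, and was 3.41 ± 0.17 in CTL. Cd163 levels were low, so this ratio rests on low values. The Mrc1 ratio was 0.02 ± 0.03 in OFF3, -0.32 ± 0.40 in OFF6 and 0.72 ± 0.02 in CTL. Adgre1 was the reverse in muscle, with 0.16 ± 0.11 in OFF3, 0.52 ± 0.06 in OFF6 and -1.02 ± 0.22 in CTL. The Aif1 ratio was 0.41 ± 0.08 in OFF3, 0.71 ± 0.05 in OFF6 and 0.16 ± 0.22 in CTL. On OFF6 replicate 2 alone the Mrc1 ratio was 0.15, while the other OFF6 arrays were below 0.

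**Figure D3:**
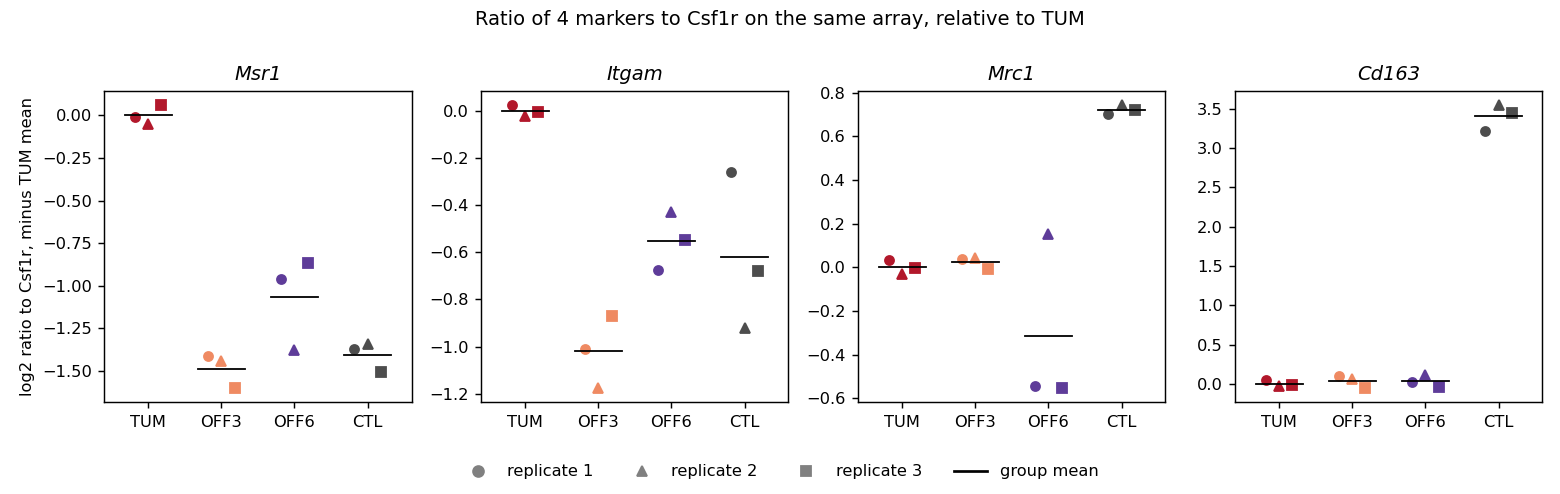
Log2 ratio of 4 markers to Csf1r on the same array, minus the mean ratio in TUM, for each array of TUM, OFF3, OFF6 and CTL. The Msr1 ratio is lower than in TUM on all other arrays, and the Cd163 ratio differs from TUM by more than 3 in CTL.

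Csf1, the main ligand of Csf1r, fell in the tumours after doxycycline removal. Its level was 10.51, 10.35 and 10.49 in TUM, 9.07, 8.98 and 8.84 in OFF3, 8.90, 8.95 and 8.97 in OFF6, and 7.37, 7.74 and 7.65 in CTL. The groups TUM and OFF3 or OFF6 did not overlap, and OFF6 replicate 2 did not stand apart for this gene. Csf1 was 2.86 ± 0.09 higher in TUM than in CTL (adjusted p = 3.53e-11). It fell by 1.49 ± 0.09 in OFF3 (adjusted p = 2.9e-07) and by 1.51 ± 0.09 in OFF6 (adjusted p = 1.89e-07), each against TUM.

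Il34, the second ligand, was 0.77 ± 0.08 higher in TUM than in CTL (adjusted p = 2.55e-06), with differences of -0.02 in OFF3 and -0.17 in OFF6 from TUM that were not called. Spi1 was 3.33 ± 0.15 higher in TUM than in CTL (adjusted p = 4.76e-10), with differences of -0.01 and -0.15 in OFF3 and OFF6 from TUM that were not called either. The OFF6 difference of Spi1 was -0.34 and called without OFF6 replicate 2 (adjusted p = 0.0286). Each gene list count here and below is to be read against the shares of all genes called. In TUM against CTL these were 30.3% higher and 45.9% lower. The shares were 13.4% and 16% in OFF3 and 14.9% and 16.6% in OFF6, each against TUM. Without OFF6 replicate 2 they were 16.4% and 18.2% in OFF3 and 16.2% and 18.4% in OFF6. Of the 14 genes of Csf receptor signalling and lineage factors, Csf1 included, 9 were higher and 4 lower in TUM than in CTL. Against TUM, 4 were higher in OFF3, among them Irf8 (0.78), Cebpa (0.69) and Csf2rb (0.67), and 2 were lower. In OFF6 against TUM Csf1 alone was lower and none higher. Those counts were 6 and 2 in OFF3 and 1 and 4 in OFF6 without OFF6 replicate 2.

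Macrophage genes outside the 10 largely shared the tumour pattern. Of 15 other general markers, 15 were higher in TUM than in CTL, by a median of 3.04, with Ms4a7 at 4.65, Mpeg1 at 4.17 and C1qa, a complement subunit, at 3.04. Against TUM, 4 of the 15 were higher in OFF3, led by the engulfment receptor Mertk (1.09, adjusted p = 0.000923), and none lower. In OFF6 against TUM, Ctsc was lower (-0.53) and none was higher. Without OFF6 replicate 2, 7 were higher in OFF3 over TUM, 4 lower in OFF6 against TUM, and 11 lower in OFF6 against OFF3. In that last comparison 12.4% of all genes were called lower. The array was set apart partly for its high values of the 10 markers, so these counts are no separate support for a fall.

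The 15 resident and alternative-type genes divided in the comparison with muscle, where 4 were higher and 5 lower in TUM. Those counts were not above the shares of all genes, 30.3% higher and 45.9% lower. Siglec1 (3.38) and Stab1 (1.81) were higher, while Maf (-1.17), Mgl2 (-1.18) and the secreted protein Retnla (-5.20) were lower. Retnla was 4.85, 4.97 and 4.73 in TUM, 7.08, 7.16 and 7.47 in OFF3, 7.02, 7.81 and 7.16 in OFF6, and 10.14, 10.08 and 9.93 in CTL. It stood between tumour and muscle at both times, 2.39 ± 0.17 above TUM in OFF3 and 2.48 ± 0.17 above it in OFF6 (adjusted p = 7.15e-07 and 4.13e-07). Of the 15, 5 were higher and none lower in OFF3 against TUM, and in OFF6 against TUM 3 were higher and 1, Stab1, lower. The counts were 10 and 0 in OFF3, and 2 and 7 in OFF6, when OFF6 replicate 2 was left out. Mrc1 and Cd163 lay on opposite sides of this division.

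Genes known from tumour and lipid-associated macrophages did not move together after removal. Of 14, 11 were higher and 3 lower in TUM than in CTL. After removal, 5 were higher and 6 lower in OFF3 against TUM, and in OFF6 against TUM 3 were higher and 7 lower. The lipid carrier Apoe rose by 0.95 in OFF3 and 0.47 in OFF6, and the lipid receptor Trem2 by 0.55 in OFF3. Gpnmb, a glycoprotein of lipid-laden macrophages, fell by 0.69 in OFF3 and 1.41 in OFF6, and the galectin Lgals3 fell by 0.72 and 0.41. Arg1, an arginase of alternatively activated macrophages, was 0.42 higher in TUM than in CTL and fell by 0.33 in OFF3 and 0.29 in OFF6. With OFF6 replicate 2 left out, 5 genes were higher and 6 lower in OFF3, and 3 higher and 6 lower in OFF6. The OFF6 difference of Apoe was then 0.26, still called, and that of Arg1 was -0.24 and no longer called (adjusted p = 0.0656). Spp1 was not among the genes measured by a probe set of its own.

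Among 15 scavenger and engulfment receptors other than Msr1, 7 were higher and 1 lower in OFF3 than in TUM, and 3 were higher and 5 lower in OFF6. The glucan receptor Clec7a rose by 1.69 ± 0.22 in OFF3 (adjusted p = 9.95e-05) and 0.82 ± 0.22 in OFF6 (adjusted p = 0.0132), and Megf10, which muscle satellite cells also express, by 1.27 and 2.45. Mfge8, a bridge to dying cells, fell by 0.47 and 0.86, the same direction as Msr1. These counts were 8 and 2 in OFF3 and 4 and 7 in OFF6 with OFF6 replicate 2 left out, and the OFF6 difference of Clec7a was then 0.53 (adjusted p = 0.0295). Of 12 lysosomal genes beside Ctss, 6 were higher in OFF3 than in TUM, among them Ctsh (0.77), and 1 was lower, Ctsk (-1.43). In OFF6 against TUM 1 lysosomal gene was higher and 2 were lower, and all these lysosomal counts were the same without OFF6 replicate 2.

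Osteoclasts, bone-resorbing cells of the same lineage, share Csf1r and several lysosomal genes with macrophages. Of 12 osteoclast genes, 9 were higher and 3 lower in TUM than in CTL, and in OFF3 and OFF6 against TUM 8 and 11 were lower and none higher (10 and 11 with OFF6 replicate 2 left out). The list was chosen with earlier results of these data known, so its counts describe these arrays and are no independent support. Atp6v0d2, a proton pump subunit, was 10.13, 10.03 and 10.06 in TUM, 7.07, 6.74 and 6.77 in OFF3, 5.55, 6.17 and 5.55 in OFF6, and 5.10, 5.36 and 5.12 in CTL. It fell by 3.21 ± 0.15 in OFF3 and 4.32 ± 0.15 in OFF6 against TUM (adjusted p = 3.07e-08 and 3.39e-09). Oscar fell by 3.14 and 3.00, Mmp9 by 2.88 and 3.64, Ctsk by 1.43 and 1.65 and the phosphatase Acp5 by 0.96 and 1.01. The mean of the 12 genes fell below TUM by 1.43 to 1.74 on every regressing array, and Msr1 and Itgam were lower on those same arrays. The part of osteoclast genes in the Msr1 and Itgam values was not tested.

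Markers of other cells were set beside the list because several express its members. Ptprc, the leukocyte antigen CD45, was 3.06 ± 0.13 higher in TUM than in CTL and 0.49 ± 0.13 higher in OFF3 than in TUM (adjusted p = 0.0145). All 11 pan-leukocyte genes were higher in TUM than in CTL, while 1 was higher and 1 lower in OFF3, and 2 were lower in OFF6, each against TUM. The OFF3 and OFF6 counts were near or below the shares of all genes. Those were 13.4% higher and 16% lower in OFF3 and 16.6% lower in OFF6. Leaving out OFF6 replicate 2 gave 4 higher and 3 lower pan-leukocyte genes in OFF3, and 0 higher and 4 lower in OFF6. Of 12 neutrophil genes, whose cells also express Itgam and Lyz2, 1 was higher and 8 were lower in TUM than in CTL, with S100a8 at -0.28 ± 0.08. These genes were low in both groups, with list means of 5.02 to 5.08 in TUM and 5.17 to 5.26 in CTL. Array medians over all genes were 6.97 to 7.20. Small differences at such levels do not measure neutrophil content, and the part of neutrophils in the Itgam and Lyz2 values was not tested. Against TUM, 2 neutrophil genes were higher in OFF3, with Csf3r at 1.19, 1 was higher in OFF6, and none was lower, with or without OFF6 replicate 2. Of 8 monocyte genes, 6 were higher and 2 lower in TUM than in CTL, with the chemokine receptor Ccr2 at 2.05. Against TUM, 4 were higher in OFF3 (Fn1, Nr4a1, Plac8 and Vcan). In OFF6 4 were higher (Chil3, Fn1, Nr4a1 and Plac8) and 1, Vcan, was lower. Ccr2 and Ms4a4c were called in neither. Nr4a1 was more abundant in muscle, at 11.69 in CTL against 8.02 in TUM, and Chil3 was low, at 4.36 in TUM. Fn1 was abundant in muscle as well, at 11.18 in CTL against 12.66 in TUM. Vcan stood at 8.13 in CTL and 11.21 in TUM. The part of other cells in the values of these monocyte genes was not tested. The monocyte counts depended on OFF6 replicate 2: when it was left out, 5 were higher and none lower in OFF3, and 2 were higher and 3 lower in OFF6. Ccr2 was then called in both, at 0.32 in OFF3 and -0.34 in OFF6 (adjusted p = 0.0164 and 0.0200).

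Genes of dendritic cells, some of which express Ctss and Itgam, were higher after removal. Of 12 dendritic cell genes, 8 were higher in OFF3 and 11 in OFF6 than in TUM, and none was lower. The class II gene H2-Ab1 rose by 1.86 ± 0.13 in OFF3 and 1.39 ± 0.13 in OFF6, and the integrin Itgax was 0.57 ± 0.13 higher in OFF6 (adjusted p = 0.00425) after 0.17 in OFF3, which was not called. Of 11 T, B and NK cell genes, 4 were higher and none lower in each of OFF3 and OFF6 against TUM. Their list means were low, at 5.57 to 5.60 in TUM, 5.82 to 5.96 in OFF3 and 5.79 to 6.15 in OFF6. Array medians over all genes were 6.97 to 7.20, and small differences at such levels do not measure the content of these cells. Among 8 mast cell genes, 6 were higher in OFF3 and none was called in OFF6, each against TUM. With OFF6 replicate 2 left out, 10 and 11 dendritic cell genes and 7 and 0 mast cell genes were higher in OFF3 and OFF6. T, B and NK cell genes then counted 5 higher in OFF3 and 3 higher in OFF6.

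Non-immune tissue also moved. At 3 days, 8 of 9 fibroblast genes, 8 of 8 endothelial genes and 9 of 10 skeletal muscle genes were higher than in TUM, and none was lower. On OFF6 replicate 2 the list means stood 1.15 above TUM for fibroblast genes, 0.60 for endothelial genes and 1.02 for mast cell genes, against 0.55 to 0.57, 0.31 to 0.32 and -0.03 to 0.04 on the other OFF6 arrays. The mean of the 10 macrophage markers on that array was 0.15 above TUM, against -0.50 and -0.49. The means of the macrophage, fibroblast, endothelial and mast cell genes were thus higher on 1 and the same OFF6 array. The mean of the skeletal muscle genes was level across the 3, at 1.18 to 1.23 above TUM, but single muscle genes were not. Without OFF6 replicate 2, OFF6 minus TUM went from 0.10 to -0.53 for Pvalb and from 3.85 to 4.07 for Myh8. The part of these tissues in the marker values was not tested.

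**Figure D4:**
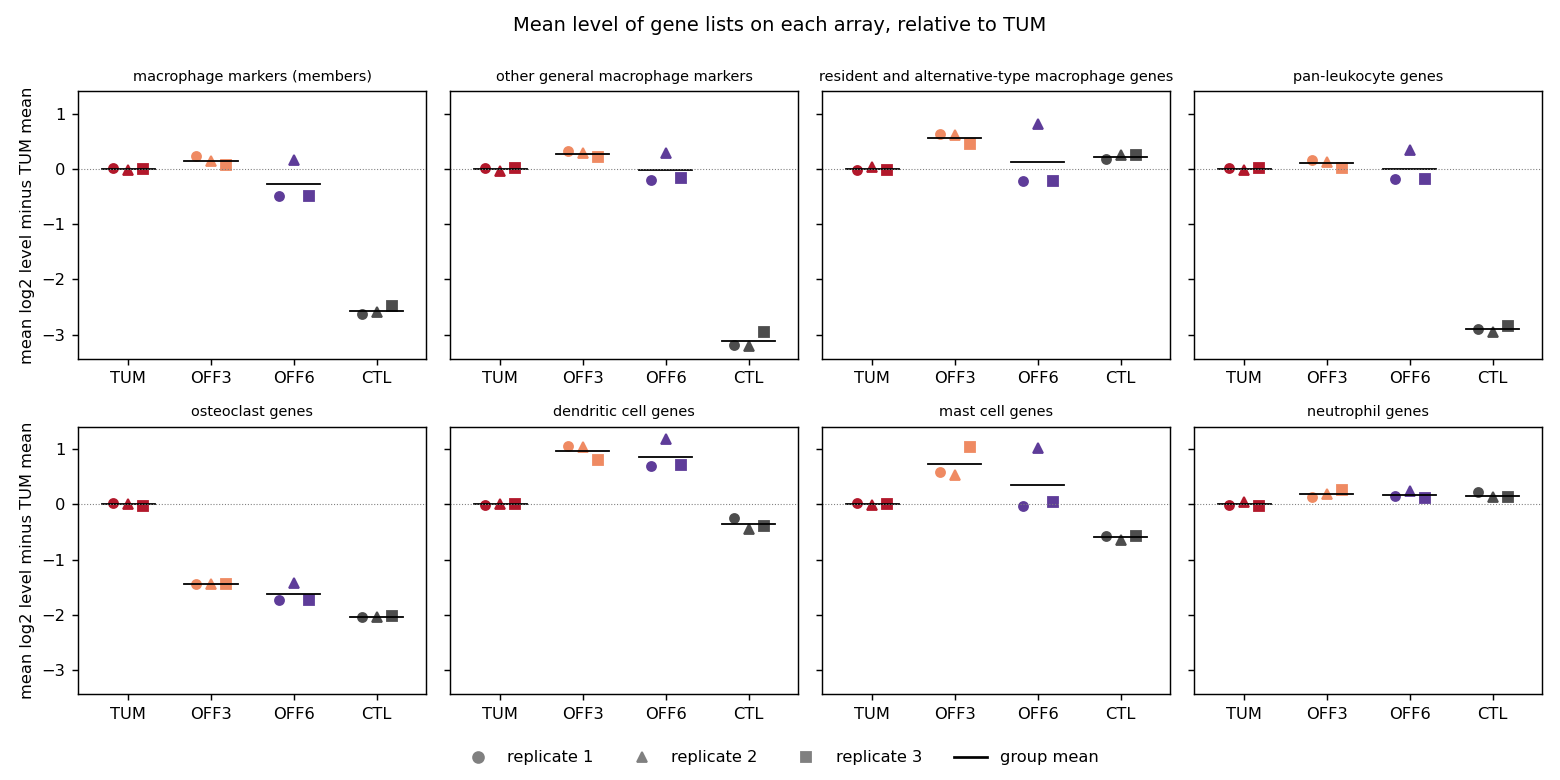
Mean log2 level of 8 gene lists on each array minus the list's TUM mean, for TUM, OFF3, OFF6 and CTL, with lines at group means. The 10 macrophage markers, the other general markers and the pan-leukocyte genes lie above CTL in all tumours, the resident and alternative-type genes do not, and OFF6 replicate 2 is the highest OFF6 array in each panel.

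Lyz1, the close paralogue of Lyz2, moved against it in the comparison with muscle. Lyz1 averaged 8.50 ± 0.11 in TUM, 9.08 ± 0.13 in OFF3, 8.29 ± 0.63 in OFF6 and 9.46 ± 0.13 in CTL (SD, n = 3 each). It was lower in TUM than in CTL (-0.97 ± 0.22, adjusted p = 0.00179) and lower in OFF6 than in OFF3 (-0.79 ± 0.22, adjusted p = 0.0419). How far each probe set reads the other paralogue is not known.

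The genes whose levels were most like those of Csf1r over the 9 tumour arrays were Rcan2 (Pearson r = 0.997), Tpst1 (0.993), Padi2 (0.990), Cd163 (0.990) and Cpt1a (0.989). Padi2 was 3.52 lower and Tpst1 0.93 higher in TUM than in CTL, so genes alike within tumours lay on both sides of muscle. For Msr1 they were Prf1 (0.998), Nrg1 (0.997), Pola1 (0.997), Pign (0.997) and Car5b (0.996), all called lower in OFF3 and OFF6 than in TUM. Over all 12 arrays the genes most like Cd163 were Dock4 (0.989), Phactr2 (0.979), Lifr (0.975), Fundc1 (0.974) and Gabarapl1 (0.974). The arrays share group means and OFF6 replicate 2, and these values describe likeness among 19937 genes with no test.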

How the data were processed

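Total RNA of 12 samples, 3 per group, was measured on Affymetrix mouse arrays. The file the authors deposited holds linear intensity per probe set. RMA (background correction, normalisation between arrays and probe summary) made it, per the submitters' processing notes. No RMA version is given in the sources used here. Of 34760 probe sets, 21640 carried 1 gene symbol in GEO's platform annotation, 1321 several and 11799 none. Log2 was taken, the brightest single-symbol probe set per gene was kept, and 19937 genes remained, low values included. Precision rests on the number of arrays: a log2 difference had a median standard error of 0.086, at 12.2 degrees of freedom.

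Using limma 3.58.1 in R 4.3.3, lmFit and eBayes were run on the 12 arrays with 4 group means, with the data.table package (version 1.17.8). The statmod version was 1.5.0, and the replicate block was added to the model as a fixed term. The 6 comparisons were tested 2-sided, with Benjamini-Hochberg adjustment over all genes in each, and an adjusted p under 0.05 was called. The procedure was tested on simulated data. Figures and motif searches used Python 3.11.15, pandas 2.3.3 and matplotlib 3.10.9. The markers and the 16 other lists, with 183 of 190 genes measured, were chosen with earlier results of these data known. The genes named beside the 10 markers were chosen genes of the pathway and, from each list, up to 4 called members with the largest difference and the largest called member against the majority. For likeness, the 5 genes with the highest correlation were named, predicted genes left out. The alternatives were other probe set rules, a filter on low values, other scalings, a trended robust variance, array weights, a replicate block, the 6 compared arrays alone, stricter thresholds and leaving out each array. List counts without OFF6 replicate 2 and ratios to Csf1r were added after seeing the data.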

Additional observations from a re-analysis of the deposited data

Results flagged for a closer look

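The change from TUM differed between 6 and 3 days for 3 markers, by the limma test of OFF6 minus OFF3. The change at 6 days minus that at 3 days was -0.66 for Csf1r, -0.66 for Cd163 and -0.997 for Mrc1, in log2 units. OFF6 lay wholly below OFF3 for Csf1r, while OFF6 replicate 2 overlapped OFF3 for Cd163 and Mrc1. All 3 calls were lost without OFF3 replicate 1 or 2 or OFF6 replicate 1 or 3, and all 3 held without OFF6 replicate 2, at -0.90, -0.94 and -1.47. With 3 arrays per group, no array was tested as an outlier.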

How the results depend on the processing

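The stricter adjusted p and the 2-fold minimum were applied to counts of markers. Under the other alternatives, where they gave a value, 29 of the 30 marker results against CTL kept their direction and call, and the exception was Cd163 in OFF3. Among tumours 8 of 30 kept direction and call under those same alternatives: Cd68, Msr1, Aif1, Ctss and Lyz2 in OFF3 against TUM, and Adgre1, Msr1 and Itgam in OFF6 against TUM. The filter on low values leaves out Cd163, so the count of markers lower than CTL was 0 under it in TUM, OFF3 and OFF6. In OFF3 against TUM, higher markers were 4, but 7 with array weights, 7 with the 6 compared arrays alone and 0 with a 2-fold minimum. Lower markers were 2, but 1 with every probe set tested, quantile normalisation, the replicate block, an adjusted p under 0.01, a 2-fold minimum and each left-out array (1 to 1). In OFF6 against TUM, higher markers were 1, but 2 with the filter, quantile normalisation or array weights, 0 with every probe set, median centring, the 6 arrays, the stricter p or the 2-fold minimum, and 0 to 2 with an array left out. Lower markers were 3, but 6 with array weights, 1 with the 2-fold minimum and up to 6 with an array left out. In OFF6 against OFF3, lower markers were 3, but 1 with every probe set, 5 with median centring, 5 with the trended robust variance, 10 with array weights, 0 with the 6 arrays, the stricter p or the 2-fold minimum, and 0 to 10 with an array left out. Markers lower than CTL were 1, but 0 in TUM with the 2-fold minimum, and 0 in OFF3 with every probe set, the stricter p and the 2-fold minimum, and 0 to 1 with an array left out. Lyz2 in OFF6 minus TUM changed sign, to -0.0625 (adjusted p = 0.501) without OFF6 replicate 2 and -0.0500 (adjusted p = 0.43) with array weights, and was called in neither. It ran from -0.0625 to 0.157 with an array left out. The cause of these moves was not tested. Equal replicate numbers gave no sign of pairing. Deviations of same-numbered arrays correlated at -0.39 to 0.25, and in 0 of 6 comparisons was every pair above 0.1. With 3 arrays per group this check cannot exclude pairing. The replicate block moved the lower count in OFF3 against TUM to 1, with Itgam at adjusted p = 0.0547.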
